A study of Mus musculus with 8 samples.

Results

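The genes of brown-type heat production and the opsin gene Opn3 were compared in inguinal white adipose tissue between male mice without lysophosphatidic acid receptor 4 and their wild-type littermates. The set was given by name and holds 10 genes: Ucp1, Cox8b, Cox7a1, Dio2, Elovl3, Prdm16, Ppargc1a, Adrb3, Kcnk3 and Opn3. Of these, 9 had at least 1 probe set annotated to them alone, among 18193 genes in all, and Adrb3 was not analysed here. Each gene was represented by the probe set with the highest mean over the arrays, so those means chose the probe sets. Opn3 joined the set because earlier results of these arrays had placed it among the largest increases, so its difference between the genotypes is a description and carries no test.

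There were 4 LPA4-KO arrays (genotype Lpar4 -/Y, called KO) and 4 wild-type arrays (WT), 1 mouse each. All mice were C57BL/6 males aged 12 weeks on standard chow, and no group received a treatment. Lpar4 is X-linked and the labels name no promoter, so the deletion is taken from the label as one of the whole mouse. Values are log2 signals of a 3' expression array made from 100 ng of total RNA per sample, and differences are KO minus WT on that scale.

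Brown and beige adipocytes are fat cells rich in mitochondria that can release fuel energy as heat. Noradrenaline acts on beta-adrenergic receptors, cyclic AMP rises, fatty acids are set free, and the uncoupling protein UCP1 lets protons back across the inner mitochondrial membrane without making ATP. Inguinal fat is the depot of the mouse in which such cells, called beige, appear among white adipocytes, mainly in the cold. Opn3 (encephalopsin) encodes a light-sensitive G protein-coupled receptor of adipocytes and brain, which has been linked to blue-light effects on lipolysis.

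The thermogenic genes fell into 2 kinds in these data. Ucp1, Dio2, Elovl3 and Prdm16 had values that hardly moved from array to array, so the table holds no information on a genotype difference for them. Cox8b, Cox7a1, Ppargc1a, Kcnk3 and Opn3 varied. Among these 5, all KO arrays lay above all WT arrays for Opn3 and Cox8b and below them for Kcnk3, whereas the genotypes overlapped for Cox7a1 and Ppargc1a. In the limma fit over all genes 0 of the 8 genes tested, 4 of them near constant, passed an adjusted p of 0.05, against 4.03% of all 18193 genes (733). At an unadjusted limma p under 0.05 there were 2 of 8, Cox8b and Kcnk3, beside 22.9% of all genes (4172), so this count lies near the background.

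Opn3 showed the widest separation of the genotypes in the set. Its only probe set read 10.26, 9.92, 9.76 and 9.66 in KO arrays 1 to 4 and 8.93, 8.98, 8.70 and 8.78 in WT arrays 1 to 4. The lowest KO array thus lay 0.68 above the highest WT array. The means were 9.90 ± 0.26 in KO and 8.85 ± 0.13 in WT (SD, n = 4 each), a difference of 1.05 ± 0.14 (SE), or 2.08-fold. Between arrays of the same number the difference was 1.33, 0.94, 1.06 and 0.88 for numbers 1 to 4. Only 23 of 5173 varying genes, Opn3 included, had a difference of this size in either direction.

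Cox8b encodes the isoform of a small subunit of cytochrome c oxidase that is used in brown fat, heart and skeletal muscle. It read 9.22, 8.75, 8.80 and 9.38 in KO arrays 1 to 4 and 8.74, 8.30, 8.42 and 8.55 in WT arrays 1 to 4. KO arrays 1 and 4 stood high, whereas KO array 2 exceeded WT array 1 by only 0.0017. The means were 9.04 ± 0.31 and 8.50 ± 0.19 (SD, n = 4 each), and the difference was 0.54 ± 0.18 (SE) or 1.45-fold, which did not pass over all genes (limma adjusted p = 0.147). In a limma fit of the varying genes alone its adjusted p was 0.0449, where 27.1% of genes passed (14.9% higher, 12.2% lower). The replicate number as a block gave 0.0301 there, where 19.5% passed (10.3% higher, 9.24% lower). With the mean of the skeletal muscle genes as a covariate there it missed the threshold (0.0581). It was higher in KO in 4 of 4 number pairs, by 0.48, 0.45, 0.38 and 0.83.

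Kcnk3 encodes the acid-sensitive potassium channel TASK-1, a tandem pore domain channel that is enriched in brown adipocytes. Its brightest probe set read 7.55, 7.40, 7.66 and 7.59 in KO arrays 1 to 4 and 7.71, 7.68, 8.01 and 7.81 in WT arrays 1 to 4. The genotypes were parted by only 0.018, the gap between KO array 3 and WT array 2. The means were 7.55 ± 0.11 and 7.80 ± 0.15 (SD, n = 4 each), and the difference of -0.25 ± 0.09 (SE) did not pass over all genes (limma adjusted p = 0.168). Among varying genes it missed the threshold without the replicate block (0.0650) and passed with the replicate block (0.0377) and with the muscle covariate (0.0227, where 25.5% of varying genes passed, 14% higher and 11.5% lower). With that covariate over all genes 0 of the set passed, against 2% of genes (1.17% higher, 0.83% lower). In both genotypes the arrays followed the same order, with number 3 highest, then 4, 1 and 2. The other 2 probe sets of Kcnk3 were near constant, so the probe sets do not agree on whether the gene varied at all.

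Groups that do not overlap were common in these data. They were found for 3 of the 5 varying genes of the set, against 33.2% of all varying genes, or 18.2% with KO higher and 15% with KO lower. Opn3 was picked for its difference, so the count for the set is no result of its own.

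Ppargc1a encodes PGC-1alpha, the coactivator that drives mitochondrial biogenesis and the cold response of brown fat. Its brightest probe set read 7.29, 7.28, 7.24 and 7.10 in KO arrays 1 to 4 and 7.30, 7.14, 7.59 and 7.29 in WT arrays 1 to 4, with WT array 3 above all others. The difference of -0.10 ± 0.10 (SE) did not pass (limma adjusted p = 0.614), and without WT array 3 it was -0.01. The other 4 of the 5 probe sets of Ppargc1a were near constant. Only the brightest probe set of this gene therefore varied by more than an SD of 0.01, and no genotype difference was detectable there. The next brightest was also highest in WT array 3, at 6.911 against 6.908 to 6.909.

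**Figure D1:**
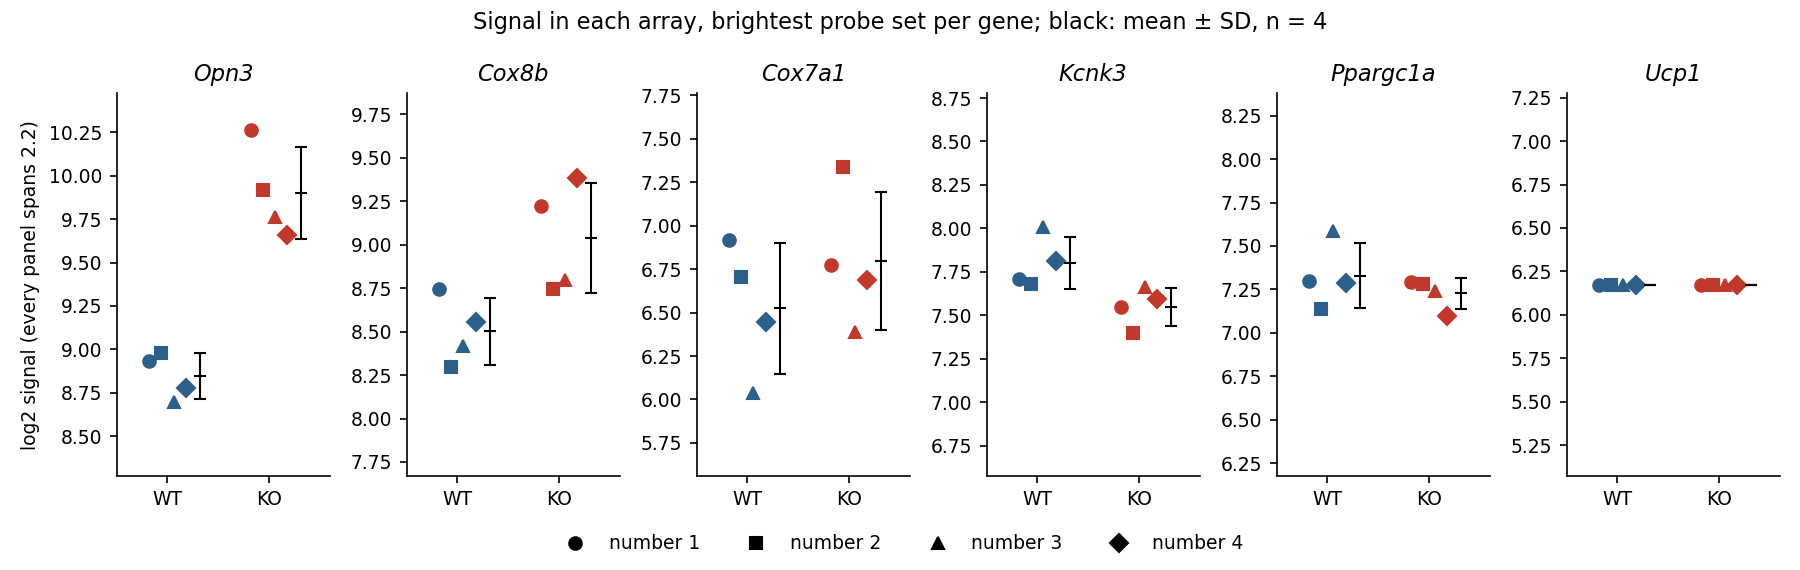
Log2 signal (vertical axis, every panel spanning 2.2 units) of 5 varying genes and near-constant Ucp1 in each WT and KO array; marker shapes give the replicate number and black bars the mean ± SD of 4 arrays. KO and WT points are parted by 0.68 for Opn3 but by only 0.0017 for Cox8b and 0.018 for Kcnk3, they overlap for Cox7a1 and Ppargc1a, and all Ucp1 points lie at 6.17.

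Near-constant genes were defined by an SD under 0.01 over the 8 arrays. Of 20 probe sets for the 9 genes, 15 were near constant and 5 varied. The limit did not decide any gene's class. Among the brightest probe sets the largest SD below it was 0.000311, for Dio2, and the smallest above it 0.145, for Ppargc1a. The largest SD of any other probe set of these genes was 0.000795, for Prdm16. Such values are the rule in this table, where 78.7% of probe sets were near constant. How they arose is not given in the sources used here.

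Ucp1, the uncoupling protein itself, stood at 6.17 in all 8 arrays with an SD of 8.7e-05. Elovl3, a fatty acid elongase induced by cold in brown fat, stood at 6.36 in all 8. Dio2, the deiodinase that makes active thyroid hormone within the cell, stood at 6.83, and its 3 probe sets were all near constant. Prdm16, the transcriptional regulator that sets brown and beige identity, stood at 7.22, and so did not vary on any of its 4 probe sets. For these 4 genes the KO and WT means are equal to 2 decimals, but the values do not show that expression was the same, or that the genes were silent.

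The share of near-constant probe sets fell with brightness, from 99.7% in the dimmest of 10 equal classes of probe sets to 24.9% in the brightest. Ucp1 lay in class 2 from the dim end, where 99.3% were near constant, and Elovl3 in class 4, where 96.8% were. Dio2 lay in class 6 (88.6%) and Prdm16 in class 7 (76.9%), together with the varying probe set of Ppargc1a. Cox7a1 varied although it lay in class 5, where 95% were near constant.

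**Figure D2:**
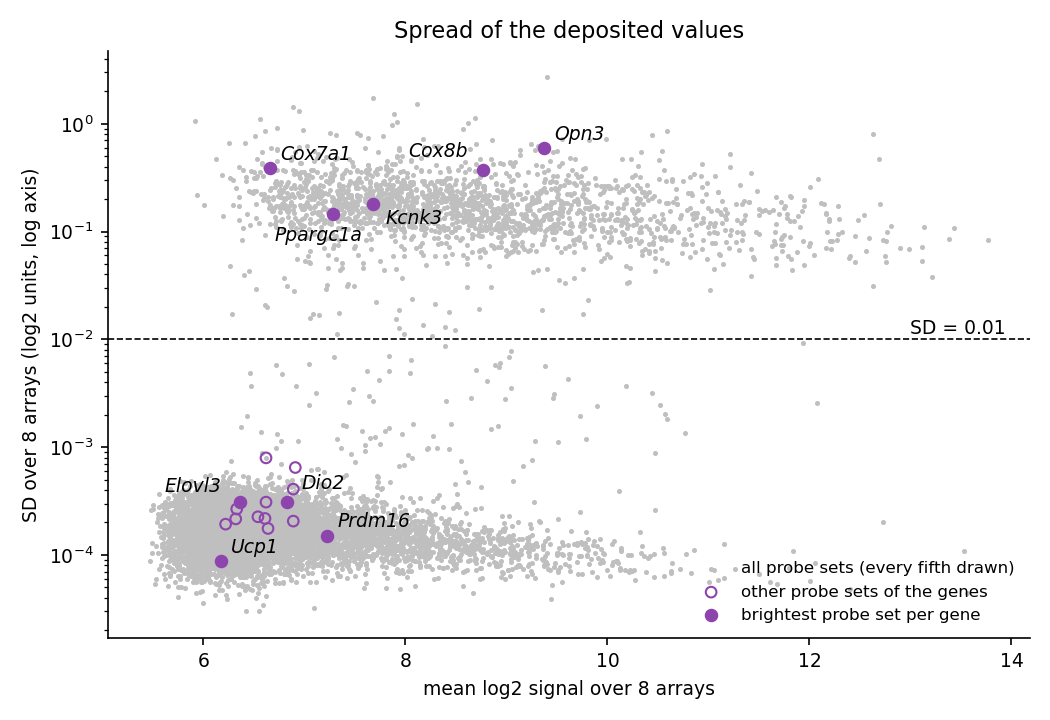
SD over the 8 arrays (vertical log axis, log2 units) against the mean log2 signal of each probe set; grey points are a regular sample of the probe sets of the table, filled circles the brightest probe set of each gene and open circles its other probe sets. Of the 20 probe sets, 15 lie in the band of near-constant values below the dashed line at an SD of 0.01, and the 5 above it belong to Opn3, Cox8b, Cox7a1, Kcnk3 and Ppargc1a.

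Cox7a1 encodes the heart and muscle isoform of another small cytochrome c oxidase subunit, which is also a marker of brown fat. It read 6.77, 7.34, 6.39 and 6.69 in KO arrays 1 to 4 and 6.92, 6.70, 6.04 and 6.45 in WT arrays 1 to 4. All 4 arrays numbered 1 and 2 lay above all 4 arrays numbered 3 and 4, a pattern found in 2.9% of varying genes (150). The margin was small, with WT array 2 at 6.703 and KO array 4 at 6.686. The genotypes overlapped, and the difference of 0.27 ± 0.27 (SE) did not pass (limma adjusted p = 0.607). It was positive in 3 of 4 number pairs and -0.14 in the pair of number 1. Without KO array 2 it was 0.09, and without WT array 3 it was 0.11.

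Skeletal muscle genes had this pattern too. Why muscle genes differ by replicate number was not tested. The mean of 26 muscle genes was 8.19, 8.79, 6.41 and 6.91 in KO arrays 1 to 4 and 8.51, 8.33, 6.43 and 6.81 in WT arrays 1 to 4. It was 1.84 higher in numbers 1 and 2 than in 3 and 4 in KO and 1.80 higher in WT, and differed by 0.06 between the genotypes. All 23 of the muscle genes that varied, such as myosin heavy chain Myh1, creatine kinase Ckm and troponin Tnnc2, had numbers 1 and 2 above 3 and 4. This split of the numbers was known from earlier results, so it is a description.

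Cox7a1 followed the muscle genes with a smaller step, of 0.52 in KO and 0.57 in WT. Its order within each genotype, 2, 1, 4, 3 in KO and 1, 2, 4, 3 in WT, was that of Ckmt2 and of Cox6a2. Ckmt2, the creatine kinase of muscle mitochondria, read 6.99, 7.89, 5.48 and 5.66 in KO arrays 1 to 4 and 7.48, 7.45, 5.57 and 5.89 in WT arrays 1 to 4. Cox6a2, the muscle isoform of subunit 6a, read 7.89, 8.87, 6.65 and 6.91 in KO arrays 1 to 4 and 8.44, 8.29, 6.62 and 6.73 in WT arrays 1 to 4. Both genes are also listed among thermogenic genes of brown fat, and here both had the arrays parted by number. With the muscle mean as a covariate the genotype difference of Cox7a1 was 0.25 and did not pass among varying genes (limma adjusted p = 0.110).

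A gene whose genotypes lie apart cannot meet that criterion over both genotypes, so the numbers were also compared within each genotype, a description added after the values were seen. There numbers 1 and 2 lay above 3 and 4 in both genotypes for Opn3 as well as Cox7a1, as for 6.15% of varying genes and all 23 varying muscle genes. For Kcnk3 they lay below in both, as for 3.32% of varying genes, whereas Cox8b and Ppargc1a had neither split. Cox8b differed between numbers 1 and 2 and numbers 3 and 4 by -0.11 in KO and 0.03 in WT, and its KO minus WT difference was 0.47 within numbers 1 and 2 and 0.61 within 3 and 4. Opn3 was 0.38 (KO) and 0.22 (WT) higher in numbers 1 and 2, the side on which muscle genes were high, with a genotype difference of 1.13 there and 0.97 in numbers 3 and 4. Kcnk3 ran the other way, with numbers 1 and 2 differing from 3 and 4 by -0.15 in KO and -0.22 in WT. KO minus WT for this gene came to -0.22 within the first pair of numbers and to -0.29 within the second. Ppargc1a turned sign, with 0.07 in numbers 1 and 2 and -0.27 in 3 and 4.

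**Figure D3:**
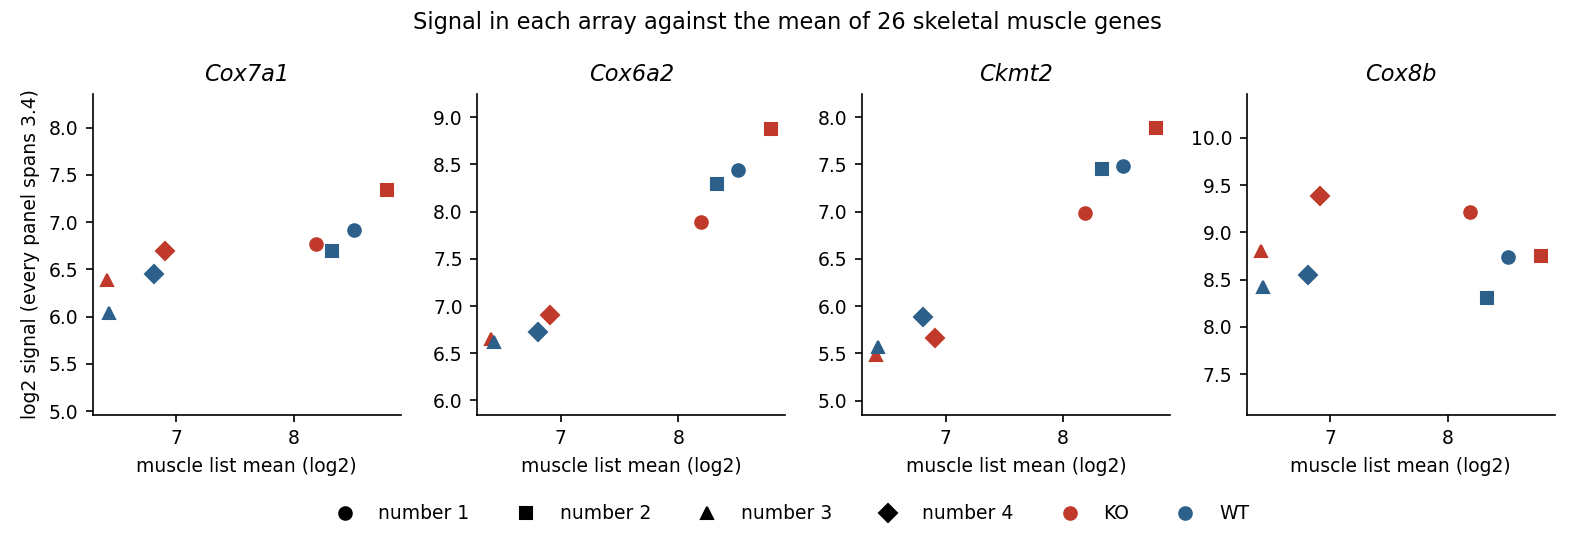
Log2 signal (vertical axis, every panel spanning 3.4 units) of Cox7a1, Cox6a2, Ckmt2 and Cox8b in each array against the mean log2 signal of 26 skeletal muscle genes; colour gives the genotype and marker shape the replicate number. The arrays form a low and a high muscle cluster by number; Cox7a1, Cox6a2 and Ckmt2 are higher in every array of the high cluster, whereas Cox8b spans 8.30 to 9.38 without that step.

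The promoters of Opn3, Cox8b and Cox7a1 are shown because these 3 genes had the largest spread in the set and their patterns differed. They are RefSeq sequences of build GRCm38.p6, from 250 bases before to 50 after the start, written along the gene's strand; 7 of the 10 genes were in the promoter table. Capitals mark matches on either strand to the E-box CANNTG, the TATA box letters TATAAA, the cyclic AMP element core TGACG, the oestrogen-related receptor site or the MEF2 site, and overlapping matches run together. The Opn3 window is chr1:175692583-175692882 (minus strand), that of Cox8b chr7:140900397-140900696 (minus) and that of Cox7a1 chr7:30183921-30184220 (plus).
Opn3: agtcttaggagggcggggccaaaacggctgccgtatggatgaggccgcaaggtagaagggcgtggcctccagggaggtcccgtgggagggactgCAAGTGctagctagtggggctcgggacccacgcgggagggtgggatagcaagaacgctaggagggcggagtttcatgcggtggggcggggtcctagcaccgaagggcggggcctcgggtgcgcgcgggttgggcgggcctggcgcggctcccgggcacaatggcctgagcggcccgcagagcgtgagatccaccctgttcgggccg
Cox8b: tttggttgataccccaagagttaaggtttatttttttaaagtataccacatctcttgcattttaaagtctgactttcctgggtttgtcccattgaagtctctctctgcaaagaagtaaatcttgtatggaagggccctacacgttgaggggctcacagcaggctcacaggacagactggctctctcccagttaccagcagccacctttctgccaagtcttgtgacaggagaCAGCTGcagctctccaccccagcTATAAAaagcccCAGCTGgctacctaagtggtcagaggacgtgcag
Cox7a1: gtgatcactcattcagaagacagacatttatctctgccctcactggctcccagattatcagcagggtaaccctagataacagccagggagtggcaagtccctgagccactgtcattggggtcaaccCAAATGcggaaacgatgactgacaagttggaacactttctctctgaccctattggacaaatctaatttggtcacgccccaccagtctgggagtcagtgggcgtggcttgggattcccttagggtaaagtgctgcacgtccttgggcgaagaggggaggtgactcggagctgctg

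The Opn3 window held 28 CpG pairs, against 2 for Cox8b, 7 for Cox7a1 and a median of 7 over all 32851 windows of this length. Cox8b had a TATAAA match, as did 13.6% of windows, with a CAGCTG E-box on each side of it. At least 1 CAGCTG was found in 16.3% of windows, and any CANNTG in 72.3%. Cox7a1 and Opn3 each held 1 CANNTG match and no TATAAA. The TGACG letters of a cyclic AMP response element, present in 20.8% of windows, were found in those of Ucp1 (1), Dio2 (2) and Ppargc1a (1) and in none of the 3 printed. The 2 matches of Dio2 are 1 palindrome, TGACGTCA, read on both strands. The oestrogen-related receptor site with letters TCAAGGTCA (0.423% of windows) and the MEF2 site (3.69%) matched in none of the 7. These are matches of letters, not shown sites.

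Genes with profiles most like each varying gene were sought among 4242 other genes with an SD of at least 0.1. The measure was the root mean square gap between log2 values centred on each gene's mean, over 8 arrays. For Opn3 the closest were Gpat3 (gap 0.21), Ces1f (0.22), Fgf10 (0.23), Hcar1 (0.23) and Lgals12 (0.24). Each was higher in KO, by 0.77, 1.35, 0.80, 0.69 and 1.23 in that order. Opn3 was picked for its genotype difference, so a match to its profile favours such genes and is no separate result. Gpat3 makes lysophosphatidic acid for triglyceride synthesis, Hcar1 is the lactate receptor that restrains lipolysis, and Lgals12 is a galectin of the adipocyte lipid droplet. The values of Hcar1 overlapped between the genotypes, with WT array 2 at 7.68 and KO array 4 at 7.66.

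For Cox8b the closest gene was Klra7, a natural killer cell receptor gene (gap 0.05), followed by Ubd (0.11), Ldhd (0.13), Uros (0.13) and Ropn1l (0.14). Klra7 read 6.44, 5.93, 6.05 and 6.58 in KO arrays 1 to 4 and 6.02, 5.64, 5.74 and 5.80 in WT arrays 1 to 4. Its arrays had the same order as those of Cox8b in both genotypes, which its choice by profile favours. Its probe set has an x suffix, so related transcripts can contribute to its value. Cidea, the lipid droplet protein used as a brown fat marker, had the same order of KO arrays as Cox8b (4, 1, 3, 2) and also its lowest WT value in number 2. Cidea was looked at after the values were seen, and read 8.43, 7.47, 7.99 and 8.53 in KO arrays 1 to 4 and 8.11, 7.52, 8.12 and 8.25 in WT arrays 1 to 4. Unlike Cox8b it overlapped between the genotypes, at 0.11 ± 0.28 (SE; limma adjusted p = 0.868).

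For Cox7a1 the closest genes were Hjv (0.13), Ddit4l (0.15), Itgb1bp2 (0.18), Asb11 (0.19) and Btk (0.20). Hjv, Itgb1bp2 and Asb11 are known from muscle, and none of the 5 was on the muscle list. For Kcnk3 they were Phyh (0.07), Rassf6 (0.07), Stat3, Matr3 and Rbm14 (0.08 each). For Ppargc1a they were Sfxn2 (0.04), Zmym5, Avpi1 and Slc25a51 (0.06 each) and Rffl (0.07). All 5 had their highest value in WT array 3, as their choice by profile favours.

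Around Opn3 on chromosome 1, the 3 nearest measured genes on each side by the GRCm38.p6 table were Rgs7, Fh1 and Kmo, and Chml, Wdr64 and Exo1. Chml lies within the span of Opn3; it read 0.26 higher in KO without passing (limma adjusted p = 0.370), and its groups overlapped. Fh1, the fumarase of the citric acid cycle, rose by 0.37 ± 0.04 (SE; limma adjusted p = 0.0154), from 10.31 to 10.68. Rgs7 differed by 0.22 (adjusted p = 0.605). Kmo, Wdr64 and Exo1 were near constant.

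The other opsin genes gave no comparison for Opn3, since all 5 measured, the cone opsins Opn1sw and Opn1mw, melanopsin Opn4, Rrh and Rgr, were near constant. Of 11 other tandem pore potassium channel genes measured beside Kcnk3, 3 varied and 0 passed over all genes by limma. Kcnk2 (TREK-1) was 0.47 ± 0.12 higher, without overlap (adjusted p = 0.0778). It passed in the fit of varying genes both unblocked (0.0202) and with the replicate block (0.0391), where 27.1% and 19.5% of varying genes passed. Kcnk1 differed by -0.75 (0.174) and Kcnk6 by 0.34 (0.239). The difference between Kcnk3 and Kcnk2 was not tested.

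Other thermogenic and beige genes were described from a list of 35, of which 33 were measured and 13 varied. Over all genes 0 rose and 2 fell by limma, against 2.39% and 1.64% of all genes. These were Hspb7, a small heat shock protein (-1.50 ± 0.21, SE; adjusted p = 0.0275), and Eva1a (-0.34 ± 0.06, 0.0369). Both also passed among varying genes with the replicate block (0.0224 and 0.0267), where 19.5% of genes passed. Hspb7 was known as a large decrease when the list was written. The median difference of the list was 6.4e-05 over its 33 measured genes, beside 2.9e-05 over all genes, and -0.08 over the 13 that varied, beside 0.015 over all varying genes.

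Genes of this list named for their roles, after their values were seen, gave values of both signs. Among those that did not pass were Pdk4, the kinase that restrains pyruvate oxidation (-0.75 ± 0.27, adjusted p = 0.168), and the lipid droplet protein Plin5 (-0.51 ± 0.21, 0.209). The fatty acid sensor Ppara (0.31 ± 0.18, 0.369) and the secreted factor Nrg4 (0.32 ± 0.14, 0.245) did not pass either. The beige surface marker Tmem26 differed by -0.25 ± 0.11 (0.234). Pparg, the master regulator of adipocytes, differed by -0.08 ± 0.03 (0.141). Its genotypes did not overlap, but KO array 2 and WT array 4 both read 10.96.

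Genes that carry the noradrenaline signal were mixed as well. Of 22 measured beta-adrenergic and cyclic AMP genes 14 varied and 0 passed over all genes by limma. The adenylyl cyclase Adcy6 was 0.22 ± 0.05 higher (adjusted p = 0.0588). The regulatory subunit Prkar1a of protein kinase A differed by -0.16 ± 0.03 (0.0625) and the phosphodiesterase Pde4d by -0.28 ± 0.09 (0.131). Among varying genes 1 was called higher, Adcy6 (0.0261), and 2 lower, Prkar1a (0.0428) and Pde4d (0.0457). That fit called 14.9% of all varying genes higher and 12.2% lower, so these counts are no result about the list. With the replicate block Adcy6 (0.0583) and Prkar1a (0.0770) missed the threshold and Pde4d passed (0.0480). The catalytic subunit Prkaca (0.35 ± 0.13, 0.180) and the lipases Lipe (-0.05) and Pnpla2 (0.00), picked after their values were seen, did not pass.

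Other cytochrome c oxidase subunits, ubiquitous ones and the tissue isoforms Cox4i2, Cox6a2, Cox6b2 and Cox8c, were set beside Cox8b and Cox7a1. Of 14 measured 10 varied, the muscle-following Cox6a2 among them, and 0 passed over all genes. Cox8a, the common counterpart of Cox8b, differed by 0.07 ± 0.03 (limma adjusted p = 0.187), and Cox7a2, the counterpart of Cox7a1, by 0.12 ± 0.03 (0.119). Cox5b (0.11, 0.0515), Cox6b1 (0.15, 0.0581) and Cox5a (0.17, 0.0637) lay just past the threshold. Cox7a2l, which encodes a factor of respiratory supercomplexes, went the other way without overlap (-0.12, 0.0719). Cox6b1 (0.0423) and Cox5a (0.0384) passed among varying genes, where 27.1% of genes passed, but not with the replicate block (0.0663 and 0.0856). The median difference of the subunits that varied was 0.07. Whether Cox8b differed from Cox8a in its response was not tested.

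Among other mitochondrial carriers the adenine nucleotide translocase Slc25a5 rose by 0.32 ± 0.05 (SE, limma adjusted p = 0.0350). It was the only call of 6 measured genes, beside 2.39% of all genes called higher and 1.64% lower. Slc25a5 passed among varying genes with the replicate block as well (0.0319). Slc25a4 was 0.22 ± 0.05 higher (0.0653) and passed among varying genes (0.0273), but not with the block (0.0590). Ucp3, the uncoupling protein of muscle, differed by -0.13 ± 0.18 (0.743). Of 11 creatine and calcium cycling genes 4 varied and 0 passed. Gatm, the first enzyme of creatine synthesis, differed by -0.75 ± 0.21 (0.105) and the creatine transporter Slc6a8 by -0.24 ± 0.08 (0.148), whereas the muscle-following Ckmt2 and Atp2a1 differed by -0.09 and 0.04. Gatm passed among varying genes both unblocked (0.0271) and with the replicate block (0.0248). Those fits called 27.1% and 19.5% of all varying genes, so these passes are no result about the lists.

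Of 11 measured partners and regulators of Prdm16 5 varied and 0 passed over all genes by limma. Tle3, a corepressor that opposes Prdm16, differed by -0.49 ± 0.12 without overlap (adjusted p = 0.0788). In the fit of varying genes it passed both unblocked (0.0204) and with the replicate block (0.0242). Those fits called 27.1% and 19.5% of all varying genes. Of 7 measured thyroid hormone genes set beside Dio2 5 varied and 0 passed. Rxra, the partner of the thyroid hormone receptors on DNA, differed by -0.30 ± 0.09 (0.106) and the lipogenic Thrsp by 0.80 ± 0.34 (0.230). Among varying genes Rxra passed unblocked (0.0345) and with the replicate block (0.0427), and Thrsp only with the replicate block (0.0460). Of 6 elongases beside Elovl3 2 varied, Elovl6 (0.31 ± 0.12, 0.190) and Elovl1 (-0.11 ± 0.06, 0.359), and 0 passed.

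**Figure D4:**
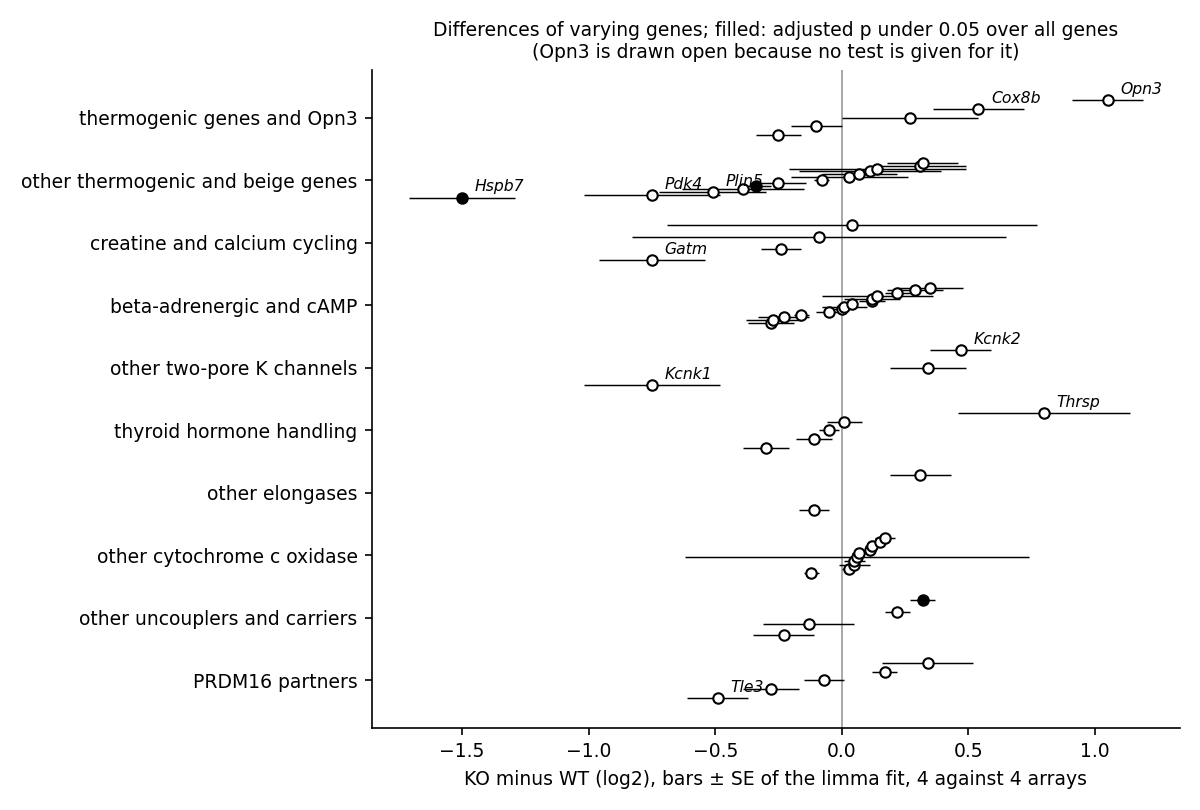
KO minus WT difference on the log2 scale (horizontal axis) of every varying gene of the set and of 9 related lists, with the SE of the limma fit over 4 against 4 arrays; filled circles passed an adjusted p of 0.05 over all genes. Filled circles mark Hspb7 (-1.50), Eva1a (-0.34) and Slc25a5 (0.32); Opn3 at 1.05 is drawn open because it carries no test, and the muscle-following Ckmt2, Atp2a1 and Cox6a2 have the widest bars.

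Some genes of other cell types and the 18S controls also differed between the genotypes, whereas several of the cell type lists overlapped. Adipocyte genes were bright in all arrays, with list means of 12.07 to 12.17 in KO and 12.04 to 12.07 in WT, where 9 of 11 were measured. Of these 2 rose, adiponectin Adipoq (0.25; limma adjusted p = 0.0486) and resistin Retn (0.26, 0.0465). Among varying genes 3 were called higher, these 2 and the glucose transporter Slc2a4 (0.45 without overlap, limma adjusted p = 0.0181). Over all genes Slc2a4 did not pass (0.069). With the replicate block among varying genes Retn (0.0337) and Slc2a4 (0.0408) passed but Adipoq did not (0.0534). Leptin Lep, picked after its values were seen, went the other way (-0.38, limma adjusted p = 0.244). It passed among varying genes only with the replicate block (0.0331) or the muscle covariate (0.0227). List counts here stand beside 2.39% of all genes called higher and 1.64% lower, or 14.9% and 12.2% of varying genes. Of 5 progenitor genes Clec3b rose (0.71, 0.0437), also among varying genes with the block (0.0249). The mean of 6 smooth muscle and pericyte genes was 8.88 to 9.19 in KO and 9.42 to 9.49 in WT. Of the 6, 1 fell, or 2 among varying genes. Acta2 fell over all genes (-1.26, limma adjusted p = 0.0134), and Tagln (-0.48) joined it among varying genes (0.0349). Myh11 (-0.36) and Des (-0.33) passed in neither of these fits, and Des had the number split of the muscle genes. The pericyte genes Rgs5 (0.12) and Cspg4 (0.01), picked after their values were seen, did not pass either. The mean of 6 endothelial genes was 9.19 to 9.46 in KO and 9.45 to 9.73 in WT, and 1 fell, or 4 among varying genes. Both Schwann cell genes measured averaged 7.49 to 8.26 in KO and 8.35 to 9.18 in WT, and 0 passed over all genes. Myelin basic protein Mbp (-1.56) passed among varying genes, unblocked (0.0245) and with the block (0.0272). Macrophage genes overlapped, at 10.02 to 10.24 in KO and 9.13 to 10.45 in WT. The 18S ribosomal RNA controls, on 3 probe sets, read 0.44, 0.22 and 0.28 higher in KO without overlap. Their part in the differences of Opn3, Cox8b and Kcnk3 was not tested, and in whole tissue a change in the number of cells of a type and a change in RNA per cell cannot be told apart. Lpar4 had 3 probe sets, of which 1 differed by -1.12 and the others by 0.71 and 0.53, each without overlap. Their place relative to the deleted part is not known here.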

How the data were processed

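Per the submitters' processing notes the authors used R 2.14.0; how they corrected background, normalised and summarised is not given in the sources used here. Log2 values of 45101 probe sets in 8 arrays were deposited by the authors, a scale read from the values (4.93 to 14.3; array medians 6.73 to 6.74). The platform annotation named 34945 probe sets for 1 gene each and 932 for several; 64 were controls. The brightest probe set stood for each of 18193 genes, of which 5173 had an SD of at least 0.01 and are called varying. The genotypes were compared by limma 3.58.1 (lmFit, eBayes; R 4.3.3), p-values were adjusted by Benjamini and Hochberg's method over all genes tested, and the threshold was 0.05; the script was tested on simulated data. limma estimated 0.332 prior degrees of freedom over all genes and 2.00 over varying genes. The labels call the arrays biological replicates, and their number limits the precision. Figures were drawn with matplotlib 3.10.9 in Python 3.11.15.

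Same-numbered KO and WT arrays deviated together from their genotype means (correlation across genes 0.315, 0.486, 0.189 and 0.244, all over 0.1), so the numbers were treated as pairs, a pairing that only the data give. It is in doubt for numbers 3 and 4: among varying genes KO 3 was closer to WT 4 (0.356) than to its own number (0.177), and likewise KO 4 to WT 3 (0.261 against 0.240). Every blocked p and count of number pairs rests on it. With the replicate block 0 genes passed over all genes (3703 at an unadjusted p under 0.05), so that fit ends every call made over all genes, those of Hspb7, Eva1a, Slc25a5 and Fh1 included. With numbers 1 and 2 against 3 and 4 as the block 493 passed.

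The genes, lists and rules were chosen with earlier results of these data known. The text names the set with all its probe sets, up to 4 genes per list with the smallest p, paralogues, the 5 genes nearest in profile and the neighbours of Opn3; genes outside this rule are stated to be picked after their values were seen, or are muscle examples.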

Additional observations from a re-analysis of the deposited data

Results flagged for a closer look

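Of 130 groups of 4 arrays checked among the varying genes of the set and its related lists, 6 held an array far from the other 3, where chance gives about 1 in 20. None of these groups belonged to Opn3, Cox8b, Cox7a1, Kcnk3 or Ppargc1a. Tmem26 was low in WT array 3 (6.49, the others 6.80 to 6.83) and Irf4 was high there (8.69, the others 7.95 to 8.03). Adcy6 was high (9.38) and Abhd5 low (9.90) in WT array 4. Mapk14 was low in KO array 4 (9.95), and Thrsp was high in KO array 1 (12.3, the others up to 11.1).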

How the results depend on the processing

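Of 21 alternatives, 2 were added after seeing the data (the muscle covariate among varying genes, and numbers 3 and 4 alone). Under all 21 the differences of Opn3 (0.93 to 1.13), Cox8b (0.42 to 0.63), Cox7a1 (0.09 to 0.41), Kcnk3 (-0.29 to -0.08) and Ppargc1a (-0.27 to -0.01) kept their sign. For many of the alternatives this was fixed in advance. Blocks by number, a changed variance fit and a changed set of genes tested leave each difference as it was. Probe set choices cannot move a gene with only 1 probe set. Opn3 was also picked for its difference. The smallest value of Kcnk3 came from averaging its probe sets, 2 of which are near constant. The limma adjusted p of Cox8b ran from 0.0301 to 0.517 and that of Kcnk3 from 0.0227 to 0.472.

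The count of passing genes, 733, was 1402 among varying genes, 0 with the replicate block (3703 at an unadjusted p under 0.05), 363 with the muscle covariate, 1317 with it among varying genes, and 0 in numbers 3 and 4 alone (2014 at an unadjusted p under 0.05). Leaving out 1 array gave 10 (without KO array 3) to 253 (without KO array 2). Of the set, 1 of 4 genes tested passed among varying genes (Cox8b), against 27.1% of all varying genes. With the replicate block there 2 of 4 passed (Cox8b and Kcnk3), against 19.5% (1011 genes). The muscle covariate there left 1 of 4 (Kcnk3), against 25.5%. Over all genes 0 of 8 passed when any array was left out. Fewer genes are tested among varying genes; the other causes were not tested.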
